A study of Homo sapiens with 12 samples.

Results

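The 7 genes described here encode growth factors of the EGF family: EREG, HBEGF, TGFA, EGF, BTC and EPGN, which bind the EGF receptor, and NRG1, a neuregulin. They were taken as the probe sets that carry exactly 1 gene symbol equal to 1 of these names, with the probe set of the highest mean over the 12 arrays kept for each gene. They are 7 of the 17958 genes compared, and 8 probe sets carried their names, since NRG1 had 2. The study measured RNA on Affymetrix arrays in 231BR cells, a brain-seeking subline of the human breast cancer line MDA-MB-231, which carried EGFP and were sorted by it. The 4 groups of 3 arrays were cells with 10 nM estradiol and mouse astrocytes, cells with vehicle (OH in the labels) and mouse astrocytes, cells with 10 nM estradiol alone, and cells with vehicle alone. Co-culture with astrocytes lasted 24 h. By its title the series asks about estrogen acting on these cells through astrocytes that carry the estrogen receptor. All groups come from this 1 line, and no label states that a replicate is a culture of its own, so p-values here reflect only the spread among these arrays, possibly technical.

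EGF family ligands are made as precursors in the cell membrane and are cut free by metalloproteases such as ADAM10 and ADAM17. The freed ligand binds an ERBB receptor on the same cell or on a neighbour, the receptors pair, and the RAS to ERK and PI3K pathways are switched on. TGFA and EGF bind EGFR, and HBEGF, BTC and EREG bind EGFR and ERBB4. EPGN is a low-affinity ligand of EGFR, and NRG1 binds ERBB3 and ERBB4. In breast cancer, HBEGF and EREG have been tied to spread to the brain and the lung, and astrocytes are the cells that surround tumour cells once they reach the brain. Another ligand, AREG, and the sequences of the proteins were not analysed here.

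In the RefSeq annotation of GRCh38.p14, EPGN, EREG, AREG and BTC follow each other on chromosome 4. EGF lies elsewhere on chromosome 4, TGFA on chromosome 2 and HBEGF on chromosome 5. The RefSeq promoter table of that build held 7 windows for 6 of the genes, each from 250 bases before to 50 bases after the start of the gene. The windows of EREG (chr4:74364895-74365194, + strand) and HBEGF (chr5:140346554-140346853, − strand) are printed because these genes had the largest differences with astrocytes among the EGFR ligand genes below. The window of EGF (chr4:109912633-109912932, + strand) is printed because it alone held a match to a motif that was searched. All run 5′ to 3′ along the gene, and capitals mark the match.
EREG: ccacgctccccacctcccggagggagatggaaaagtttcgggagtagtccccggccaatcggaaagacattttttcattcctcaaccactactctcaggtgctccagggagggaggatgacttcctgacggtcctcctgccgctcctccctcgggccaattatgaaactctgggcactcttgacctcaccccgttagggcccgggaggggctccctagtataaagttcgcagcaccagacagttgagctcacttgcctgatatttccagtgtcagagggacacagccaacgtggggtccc
HBEGF: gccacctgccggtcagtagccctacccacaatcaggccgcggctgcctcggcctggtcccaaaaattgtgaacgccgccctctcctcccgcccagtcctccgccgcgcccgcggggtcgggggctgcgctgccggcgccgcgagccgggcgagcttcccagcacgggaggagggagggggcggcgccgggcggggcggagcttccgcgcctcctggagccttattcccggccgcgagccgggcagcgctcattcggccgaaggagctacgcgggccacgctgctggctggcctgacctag
EGF: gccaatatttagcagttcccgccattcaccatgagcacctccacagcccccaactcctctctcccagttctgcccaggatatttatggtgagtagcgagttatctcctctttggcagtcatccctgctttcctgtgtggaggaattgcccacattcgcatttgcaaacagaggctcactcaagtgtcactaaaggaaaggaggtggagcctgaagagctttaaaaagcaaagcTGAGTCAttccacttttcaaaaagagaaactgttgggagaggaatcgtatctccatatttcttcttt
The motifs were searched as exact letters on both strands. They were the AP-1 site (TGANTCA), the cyclic AMP response element (TGACGTCA), the EGR site (GCGGGGGCG) and the estrogen response element (GGTCA, any 3 bases, TGACC). Of the 7 windows only that of EGF held any of the 4, an AP-1 match that begins 17 bases before the start. Of all 35116 promoter windows, 7.71% held the AP-1 letters, 1.85% the cyclic AMP element, 5.07% the EGR site and 0.0570% the estrogen response element. A match or its absence describes these letters in this window and nothing more. Bases C and G made up 57.7% of the EREG window, 75.0% of the HBEGF window and 46.7% of the EGF window.

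Signal on the arrays with astrocytes spanned a narrower range, which touches every result below. Across the values of an array, the SD was 1.62 to 2.10 under estradiol with astrocytes and 1.82 to 2.04 under vehicle with astrocytes, against 2.12 to 2.20 under estradiol alone and 2.04 to 2.22 under vehicle alone. Replicate 2 of estradiol with astrocytes, at 1.62, and replicate 2 of vehicle with astrocytes, at 1.82, stood lowest. Over all genes, dim ones had positive and bright ones negative differences with astrocytes. The 8 markers of MDA-MB-231 cells averaged 8.38 to 9.85 per array with astrocytes and 9.79 to 10.2 without on the log2 scale. Of these, 7 had negative differences with astrocytes in the mean of both treatments and 4 passed downward, with a list median of −0.55. ESR1, which encodes the estrogen receptor alpha that this line lacks, stood at 3.63 to 5.09 with astrocytes and 3.31 to 3.90 without. Of 12 astrocyte markers on this human array, 8 had positive differences with astrocytes in the mean of both treatments. GFAP was among the 6 that passed upward, and SLC1A3 and GJA1 passed downward. The astrocyte markers averaged 4.96 to 5.36 per array with astrocytes and 4.71 to 5.0 without. Of the 7 measured microglia markers 4 passed upward, and their per-array mean was 3.39 to 4.80 with astrocytes and 3.11 to 3.44 without. Of 4 oligodendrocyte markers 3 passed upward, and of 5 neuron markers 2 passed upward and 1 downward. Of 6 genes expected to be low in MDA-MB-231 cells, ESR1 among them, 3 passed upward and all 6 had positive differences. Among all 17958 genes, 4392 passed upward and 4136 downward in that comparison. With all genes split into 10 equal parts by mean signal, the 4 dimmest parts had median differences of 0.37 to 0.46. The part of the signal range in the results below was not tested beyond quantile normalization and a fit with array SD as a covariate. The part of astrocyte or other brain cell RNA in the sorted cells, and of mouse RNA on human probes, was not tested. In bulk samples, fewer cells of a type and less RNA per cell cannot be told apart.

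EREG, which encodes epiregulin, had a log2 signal of 8.06, 5.30 and 7.15 in estradiol with astrocytes and 8.29, 7.80 and 7.05 in vehicle with astrocytes (replicates 1 to 3). It had 9.05, 9.02 and 9.21 in estradiol alone and 9.25, 9.17 and 8.75 in vehicle alone. All 6 arrays with astrocytes were below all 6 without, and replicate 2 of estradiol with astrocytes was the lowest by a wide margin. The order of the group means was estradiol with astrocytes, at 6.84 ± 1.41 (SD, n = 3), vehicle with astrocytes, at 7.71 ± 0.63 (SD, n = 3), vehicle alone, at 9.06 ± 0.27 (SD, n = 3), and estradiol alone, at 9.09 ± 0.10 (SD, n = 3). The 2 astrocyte groups overlapped each other, and so did the 2 groups without astrocytes.

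HBEGF, the heparin-binding ligand that also serves as the diphtheria toxin receptor, followed the same order. Its log2 signal was 8.97, 7.43 and 8.72 in estradiol with astrocytes and 9.36, 9.06 and 8.30 in vehicle with astrocytes. It was 9.61, 9.53 and 9.63 in estradiol alone and 9.62, 9.62 and 9.46 in vehicle alone. All 6 arrays with astrocytes were again below all 6 without, and the same replicate 2 was lowest. The group means were 8.37 ± 0.83 and 8.91 ± 0.55 with astrocytes under estradiol and vehicle, against 9.59 ± 0.055 and 9.57 ± 0.093 without (SD, n = 3 each). The spread between replicates was several times larger with astrocytes than without.

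TGFA, a classical high-affinity EGFR ligand gene of carcinomas, had 5.71, 5.31 and 5.31 in estradiol with astrocytes and 5.71, 5.32 and 5.10 in vehicle with astrocytes. Its log2 signal was 6.06, 5.80 and 5.81 in estradiol alone and 5.95, 5.78 and 5.54 in vehicle alone. Under estradiol the arrays with and without astrocytes did not overlap, and under vehicle they did, by replicate 1 with astrocytes and replicate 3 alone. The replicate 2 that was lowest for EREG and HBEGF did not stand apart for TGFA.

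NRG1, on chromosome 8, encodes the ERBB3 and ERBB4 ligand. It had 5.96, 5.14 and 5.69 in estradiol with astrocytes and 6.27, 5.62 and 5.10 in vehicle with astrocytes on its brighter probe set (8145736). It had 6.81, 6.57 and 6.55 in estradiol alone and 6.68, 6.76 and 6.46 in vehicle alone. All 6 arrays with astrocytes lay below all 6 without. The second NRG1 probe set (8145766) had 5.62, 4.44 and 4.63 in estradiol with astrocytes and 5.89, 4.60 and 4.47 in vehicle with astrocytes. It had 7.06, 6.95 and 6.94 in estradiol alone and 7.05, 7.14 and 5.91 in vehicle alone. On that probe set replicate 3 of vehicle alone stood below the other arrays without astrocytes and barely above the highest array with them. The group means of the second set without astrocytes were 6.98 under estradiol and 6.70 under vehicle. Those of the kept set were lower, at 6.64 and 6.63.

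The other ligand genes, EGF, BTC and EPGN, were below the median signal of the array on all 12 arrays, while EREG, HBEGF, TGFA and NRG1 were above it on all 12. EGF, the founding ligand of the family, ranged over 3.32 to 4.20 in the 6 arrays with astrocytes and 3.28 to 3.41 in the 6 without. BTC, which encodes betacellulin, ranged over 3.08 to 4.30 with astrocytes and 2.95 to 3.13 without. Its 2 highest arrays were replicate 2 of estradiol with astrocytes, at 4.30, and replicate 2 of vehicle with astrocytes, at 3.77, which are the 2 arrays with the narrowest range of signal. EPGN, which encodes epigen, stayed between 2.12 and 2.66 on all arrays, with the groups overlapping.

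**Figure D1:**
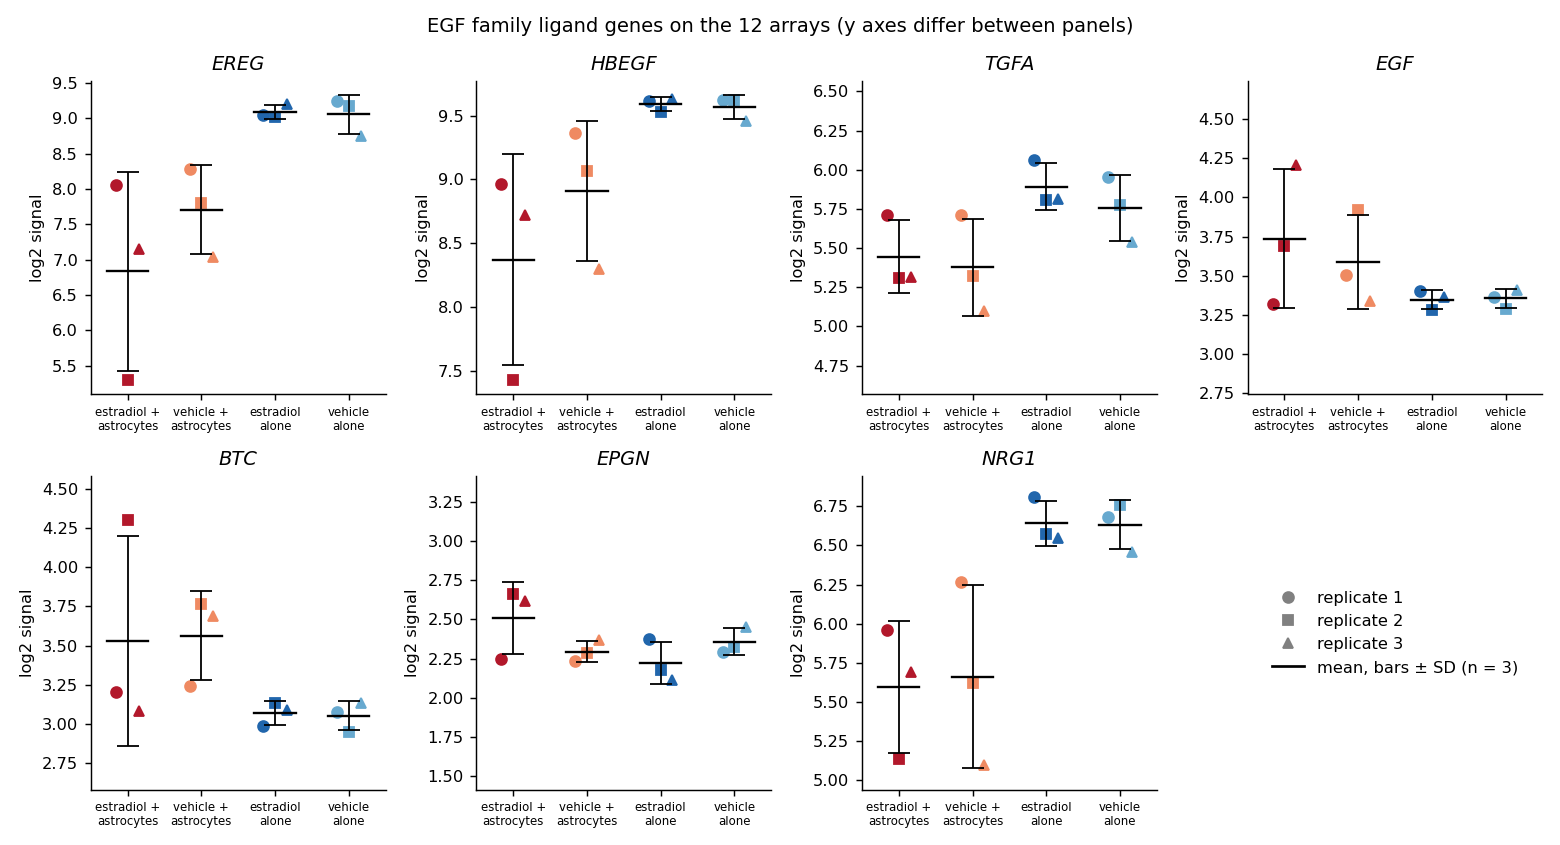
Log2 signal of the 7 ligand genes on each array, 1 panel per gene, in the 4 groups from estradiol with astrocytes to vehicle alone; symbols give the replicate number, and bars the mean ± SD (n = 3). EREG, HBEGF and NRG1 lie lower on all 6 arrays with astrocytes than on all 6 without, while EGF, BTC and EPGN stay low throughout.

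The comparison of astrocytes against none under estradiol asks which genes differ in tumour cells kept beside astrocytes while the hormone is present. EREG fell by 2.26 on the log2 scale (SE 0.55), so its signal with astrocytes was 0.209 of that alone. The 95% interval of the difference ran from −3.46 to −1.05, and the adjusted p in limma over all genes was 0.0368. NRG1 fell by 1.04 (SE 0.30, adjusted p = 0.0445). HBEGF had a difference of −1.22 (SE 0.37, 95% interval −2.03 to −0.41) and missed the threshold of 0.05 with an adjusted p of 0.0504. TGFA stood at −0.45, EGF at 0.39, BTC at 0.46 and EPGN at 0.29, with adjusted p from 0.132 to 0.220. Thus 2 of 7 ligand genes passed, both lower, where 13.2% of all 17958 genes passed in either direction and 8.15% passed lower. The arrays of the 2 groups did not overlap for 4 of 7 ligand genes, all lower, against 23.9% of all genes lower and 50.9% in either direction. The median of the 7 was −0.45, beside 0.07 for all genes.

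These calls depended on single arrays. Without replicate 2 of estradiol with astrocytes the EREG difference was −1.49 (adjusted p = 0.0497) and that of NRG1 −0.81 (0.0946). EREG no longer passed without replicate 3 of estradiol with astrocytes (0.0871), replicates 1, 2 or 3 of estradiol alone (0.155, 0.0883 and 0.121) or replicates 1 or 2 of vehicle alone (0.0554 and 0.0619), with differences from −2.41 to −2.20. NRG1 passed only without replicate 1 of estradiol with astrocytes (0.0123), replicate 1 of vehicle with astrocytes (0.0292) or replicate 3 of vehicle with astrocytes (0.0480). HBEGF passed without replicate 1 of estradiol with astrocytes (−1.51, 0.0107) or replicate 1 of vehicle with astrocytes (−1.22, 0.0478), and with the replicate number as a block (0.0260), where 51.4%, 15.2% and 37.3% of all genes passed. With array SD as a covariate none of the 7 passed, with EREG at −0.97 (0.136) and NRG1 at −0.56 (0.249).

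Under vehicle, the same comparison of astrocytes against none puts that question without the hormone. No ligand gene passed in limma, with or without trend and robust options. NRG1 had a difference of −0.97 (SE 0.30, adjusted p = 0.0982) and EREG one of −1.34 (SE 0.55, adjusted p = 0.150), and both had an unadjusted p under 0.05. HBEGF stood at −0.66, TGFA at −0.38, EPGN at −0.06, EGF at 0.23 and BTC at 0.51. Of all genes 0.0557% passed, which is 10 genes, and 0.0390% passed lower, while 28.2% had an unadjusted p under 0.05. The arrays did not overlap for 3 ligand genes that were lower with astrocytes (EREG, HBEGF and NRG1) and for BTC, which was higher. Over all genes, 18.4% were lower and 23.4% higher in this way. Without replicate 2 of estradiol with astrocytes, an array of neither group that enters through the shared spread, 4 ligand genes passed, but so did 34.0% of all genes. Without replicate 1 of vehicle with astrocytes 1 ligand gene and 9.08% of all genes passed. With the replicate number as a block NRG1 passed (0.0355), as did 14.4% of all genes.

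Averaged over both treatments, which sets 6 arrays against 6, EREG fell by 1.80 (SE 0.39, adjusted p = 0.00733), so that the signal without astrocytes was 3.48 times that with them. NRG1 fell by 1.01 (SE 0.21, adjusted p = 0.00645), HBEGF by 0.94 (SE 0.26, adjusted p = 0.0168) and TGFA by 0.41 (SE 0.15, adjusted p = 0.0460). BTC had a difference of 0.49 (SE 0.21, adjusted p = 0.0696), EGF of 0.31 (SE 0.17, adjusted p = 0.137) and EPGN of 0.11 (SE 0.13, adjusted p = 0.457). In all, 4 of 7 ligand genes passed, all lower with astrocytes, where 23.0% of all genes passed lower and 47.5% in either direction. With arrays centred on their medians 2977 genes passed higher and 4653 lower, against 4392 and 4136 as deposited, and the same 4 ligand genes passed. The arrays did not overlap for 3 of 7, all lower, against 11.3% of all genes lower. The second NRG1 probe set fell by 1.90 (adjusted p = 0.0038), nearly 2 times the difference of the kept set on the log2 scale.

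Without any single array EREG stayed between −2.11 and −1.42, HBEGF between −1.09 and −0.70 and NRG1 between −1.16 and −0.87, and each passed every time in limma. TGFA passed only without replicate 1 of estradiol with astrocytes (−0.48, adjusted p = 0.0213), replicate 1 of vehicle with astrocytes (−0.50, 0.0232) or replicate 3 of vehicle alone (−0.47, 0.0387). Its differences without each of the other arrays were −0.44 to −0.34 with an adjusted p of 0.0541 to 0.112. BTC passed upward without replicate 1 or 3 of estradiol with astrocytes (0.57, 0.0367, and 0.60, 0.0409) or replicate 1 of vehicle with astrocytes (0.57, 0.0499). It stood at 0.29 without replicate 2 of estradiol with astrocytes. EGF passed upward without replicate 1 of estradiol with astrocytes (0.41, 0.0390). With the replicate number as a block BTC passed (0.49, 0.0498).

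**Figure D2:**
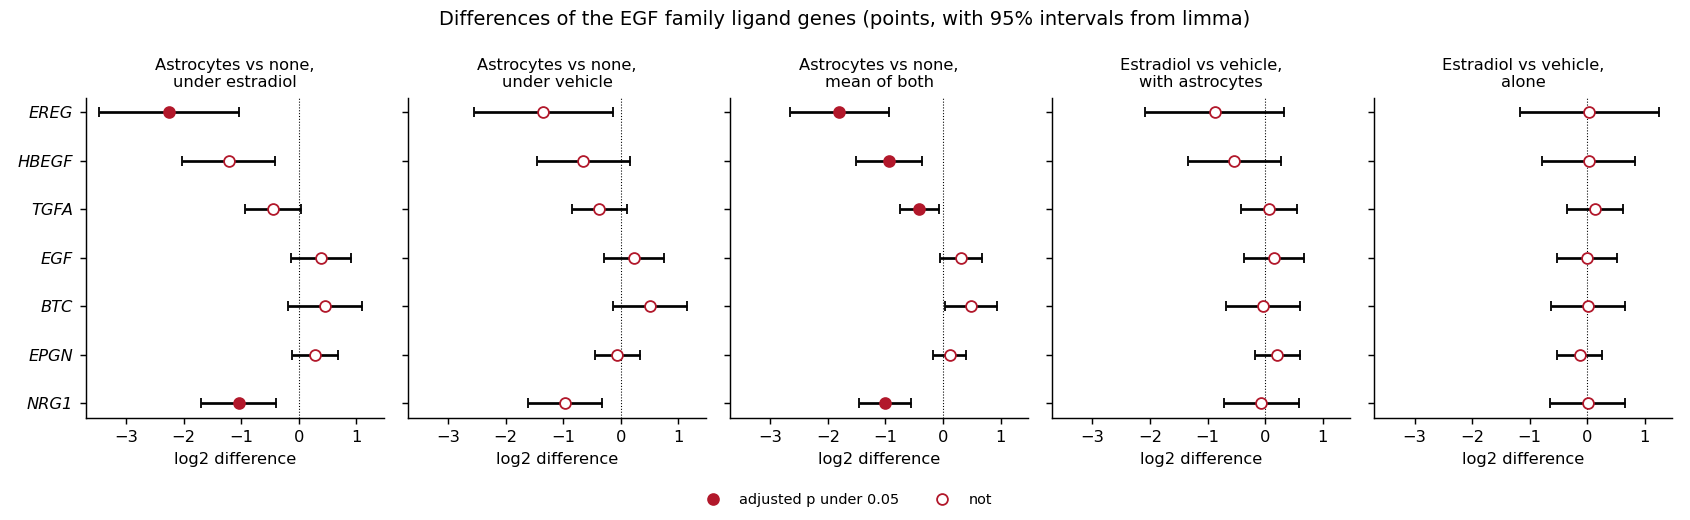
Log2 differences of the 7 ligand genes with 95% intervals from limma in 5 comparisons, the group named first minus the group named after it; filled points passed an adjusted p of 0.05 over all genes. EREG and NRG1 passed under estradiol, EREG, HBEGF, TGFA and NRG1 passed in the mean of both treatments, and no gene passed for estradiol against vehicle.

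An exact permutation of array labels within each treatment, two-sided, was run on single values for the 7 genes. EREG, HBEGF and NRG1 each gave p = 0.005, the smallest that the 400 permutations allow. BTC, which was higher with astrocytes, gave p = 0.015 and TGFA, which was lower, p = 0.020 by this exact permutation test. For EGF and EPGN the exact permutation p was 0.060 and 0.285. In all 5 of 7 had an exact permutation p under 0.05, of which 4 were lower, where 62.6% of all genes did so in either direction and 28.8% lower. These p-values are not adjusted. With 3 arrays on each side, the smallest p of such an exact permutation is 0.1.

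Set against genes of like signal, EREG lay near the low end, and TGFA and BTC near the middle. Genes were ordered by mean signal over the 12 arrays and split into 10 equal parts, and the median difference with astrocytes was taken in each. In the mean of both treatments, the brightest part, which holds EREG and HBEGF, had a median of −0.52. EREG, at −1.80, was lower than all but 1.84% of the genes in that part, and HBEGF, at −0.94, than all but 24.3%. The part that holds NRG1 had a median of −0.61, beside −1.01 for NRG1, which was lower than all but 29.0% of it. This position is that of the kept NRG1 probe set. The second NRG1 probe set, at −1.90, was not placed in this way. The part that holds TGFA had a median of −0.36, beside −0.41 for TGFA, at 48.0%. Dim parts ran the other way. EGF (0.31) and BTC (0.49) lay in a part with a median of 0.45, with 32.3% and 55.8% of its genes below them. EPGN (0.11) lay in the dimmest part, with a median of 0.37 and 12.6% of its genes below it. These positions are descriptions and carry no test.

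**Figure D3:**
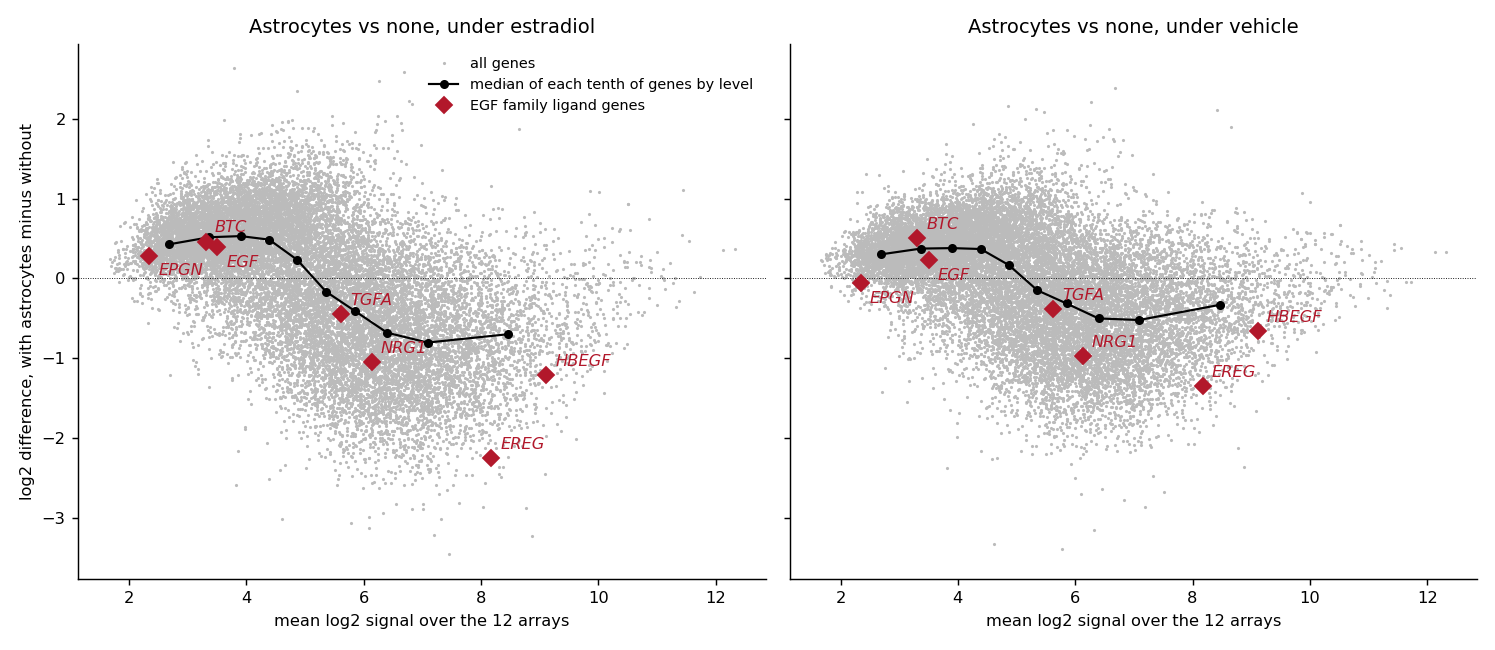
Log2 difference with astrocytes minus without, under estradiol (left) and under vehicle (right), against the mean log2 signal of each gene over the 12 arrays; grey dots are all 17958 genes, the line joins the medians of 10 equal parts by level, and diamonds are the ligand genes. The line is above 0 for dim genes and below 0 for bright ones, TGFA, EGF and BTC lie near it, and EREG lies far below it at −2.26 under estradiol and −1.34 under vehicle.

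The fit with array SD as a covariate asks how much of a difference goes beyond that range. No ligand gene passed in it in any comparison, where 14.4% of all genes passed in the mean of both treatments. In the mean of both treatments EREG stood at −0.66 (adjusted p = 0.124), NRG1 at −0.58 (0.0807), HBEGF at −0.30 (0.427) and TGFA at −0.17 (0.520). BTC, at −0.06, and EPGN, at −0.04, turned negative. Quantile normalization, which gives every array the same distribution of values, left EREG at −1.49 (adjusted p = 0.0171), HBEGF at −0.56 (0.0364) and NRG1 at −0.75 (0.0216), all still past the threshold. TGFA no longer passed there (−0.24, 0.151), and EGF was at 0.02, BTC at 0.20 and EPGN at −0.13. Of all genes 35.3% passed with quantile normalization. Astrocytes and a narrower range came together on these arrays, so the covariate and the group can be only partly told apart.

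**Figure D4:**
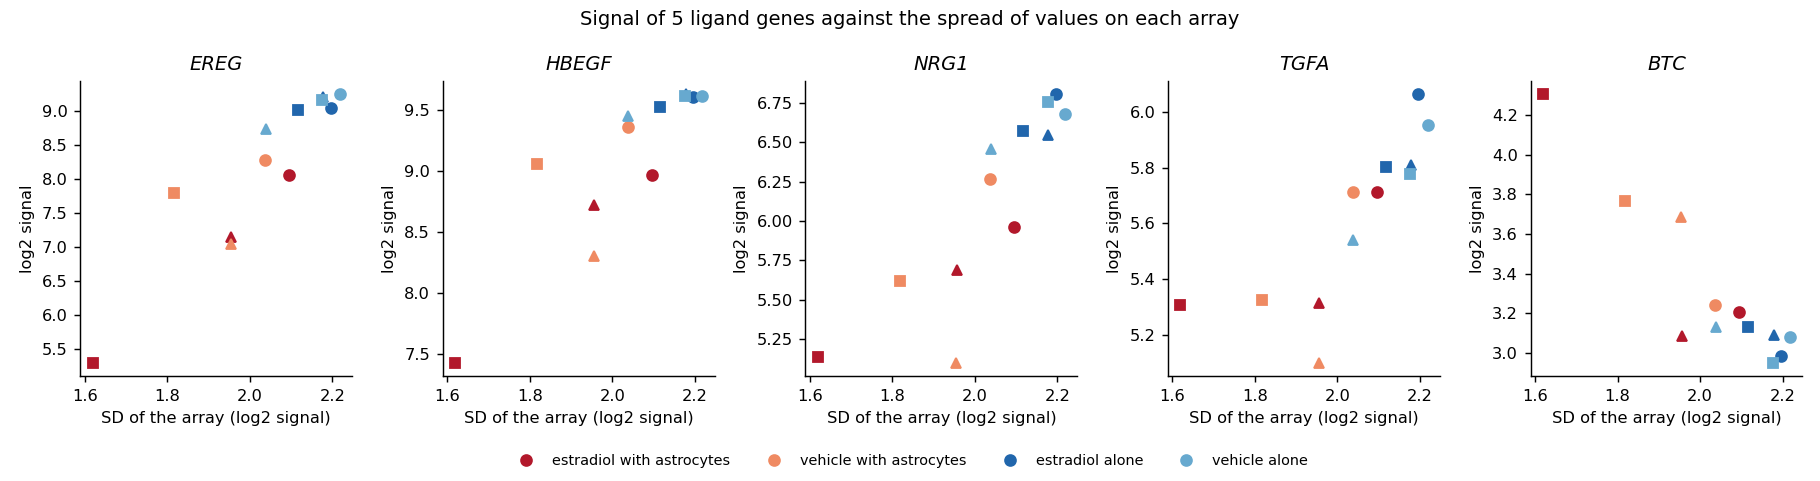
Log2 signal of EREG, HBEGF, NRG1, TGFA and BTC on each of the 12 arrays against the SD of all log2 values on that array; colours give the 4 groups and symbols the replicate number. The array with the lowest SD, 1.62, has the lowest EREG (5.30) and HBEGF (7.43) and the highest BTC (4.30). At an SD near 1.96, replicate 3 of estradiol with astrocytes and of vehicle with astrocytes has EREG at 7.15 and 7.05. In the same order these arrays have HBEGF at 8.72 and 8.30 and NRG1 at 5.69 and 5.10. They have TGFA at 5.31 and 5.10, and BTC at 3.08 and 3.69.

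The comparisons of estradiol against vehicle ask what the hormone does on its own and beside astrocytes. With astrocytes no ligand gene passed. EREG had a difference of −0.88 (95% interval −2.09 to 0.33) and HBEGF of −0.54 (95% interval −1.35 to 0.27), with adjusted p of 1.00 in limma. EPGN stood at 0.21, EGF at 0.15, TGFA at 0.07, BTC at −0.03 and NRG1 at −0.07. The groups overlapped for all 7, where 2.18% of all genes did not overlap. Without replicate 2 of estradiol with astrocytes the EREG difference was −0.11, and that of HBEGF −0.07. Of all genes 0% passed, with 142 (0.791%) at an unadjusted p under 0.05, and limma with trend and robust options also called none.

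Without astrocytes, the differences between estradiol and vehicle ranged from −0.13 for EPGN to 0.14 for TGFA. EREG stood at 0.03 with a 95% interval from −1.18 to 1.24, HBEGF at 0.02 with an interval from −0.78 to 0.83, and NRG1 at 0.01 with an interval from −0.64 to 0.66. The intervals do not show that the groups were alike, and for EREG they reach changes of more than 1 on the log2 scale. The arrays overlapped for every ligand gene, where 3.21% of all genes did not overlap. No gene of the series passed in limma (0%), with or without trend and robust options, and 1 (0.00557%) had an unadjusted p under 0.05. The test of the interaction, whether the effect of estradiol differs with astrocytes, gave EREG −0.91 (SE 0.78), HBEGF −0.56 (SE 0.52) and EPGN 0.35 (SE 0.26). The other 4 lay between −0.07 and 0.16. None passed, each with an adjusted p of 1.00 in limma, nor did any gene of the series (0%, with 31 genes or 0.173% at an unadjusted p under 0.05, and 0 with trend and robust options).

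Other genes of the pathway, in 6 lists chosen with earlier results of these data known, are given for the mean of both astrocyte comparisons. Of 16 genes for shedding and processing of ligand precursors 3 fell and none rose, where 23.0% of all genes passed lower and 47.5% in either direction. As a share, this was near that of all genes passing lower and below that of all genes passing in either direction. ADAM10 fell by 1.97 (adjusted p = 0.0119), ADAM17, the main sheddase of TGFA, HBEGF and EREG, by 1.70 (0.00814) and ADAM9 by 1.53 (0.0292). ADAM17 had 6.60, 4.29 and 5.57 in estradiol with astrocytes and 6.57, 4.99 and 5.15 in vehicle with astrocytes, against 7.39, 7.13 and 7.32 in estradiol alone and 7.58, 7.29 and 6.67 in vehicle alone. All 6 arrays with astrocytes were lower, and replicate 2 of estradiol with astrocytes was the lowest, as for EREG. The median of the list was −0.19, and FURIN, a convertase that matures precursors and proteases, was at −0.22 without passing.

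Of the 4 receptors, EGFR fell by 1.45 (adjusted p = 0.00714), ERBB4 rose by 0.82 (0.0152), and ERBB2 and ERBB3 did not pass, at 0.03 and 0.29. Among 11 measured adaptors that link receptors to RAS and PI3K, 8 fell and none rose, against 23.0% of all genes passing lower, with a median of −0.94 beside 0.07 for all genes. They included SOS1 at −2.25, SOS2 at −1.77 and PTPN11 at −1.65. Of 17 genes for receptor endocytosis and feedback, 9 fell and 1 rose, where 47.5% of all genes passed in either direction and 23.0% lower, with a median of −0.75. CBL, the ubiquitin ligase that sends EGFR to degradation, fell by 2.03, LRIG2 by 1.47 and the feedback inhibitor gene ERRFI1 by 1.21, and EPN1, an adaptor of clathrin-coated pits, rose by 0.52. The tetraspanin genes CD9 and CD82, CD44 and NRDC, a protease that binds HBEGF, were the 4 of 8 HBEGF partners that passed, all lower, against the same 23.0%, with a list median of −0.66. Of 3 other measured ligand genes NRG4 rose by 0.47 (0.0380), NRG3 was at 0.60 (0.0541) and NRG2 at 0.11 (0.460). Without astrocytes, ERBB4 had group means of 3.47 under estradiol and 3.52 under vehicle, and NRG4 of 2.28 and 2.32. Both are thus dim, and dim genes had positive differences in general. Mean signal per array under estradiol alone was 6.96 to 7.28 for the adaptor list and 6.54 to 6.79 for endocytosis and feedback. For the HBEGF partners it was 8.01 to 8.09. These lists are thus bright on average, and bright genes had negative differences in general. Among only genes above the median level, 3163 of 8979 passed lower in the mean of both treatments, with a median difference of −0.48. The lists were not tested against genes of like signal. Under estradiol 2 shedding genes, 1 receptor, 4 adaptors and 4 endocytosis and feedback genes passed, all lower with astrocytes, where 8.15% of all genes passed lower and 13.2% in either direction. Under vehicle none of the listed genes passed. With array SD as a covariate 2 adaptors and 4 endocytosis and feedback genes passed in the mean of both treatments, where 14.4% of all genes did. No gene of the shedding, receptor, HBEGF partner or other ligand lists passed there.

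**Figure D5:**
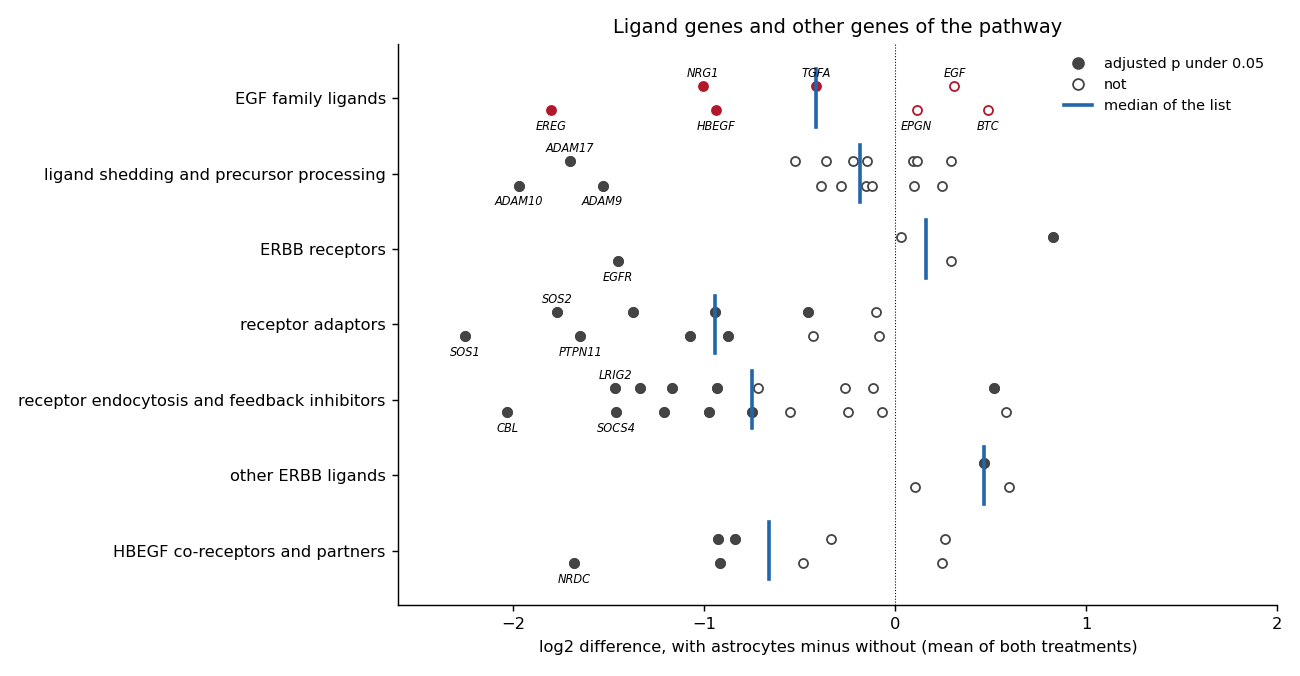
Log2 differences with astrocytes minus without, as the mean of both treatments, for the 7 ligand genes and 6 lists of other pathway genes; filled points passed an adjusted p of 0.05 and bars give the median of each list. EREG, at −1.80, lies in the same range as ADAM10 (−1.97), ADAM17 (−1.70) and EGFR (−1.45), and the median of the ligand genes is −0.41.

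The genes whose log2 signal ran most like that of each ligand gene were found by Pearson correlation over the 12 arrays, as a description across groups that differ in their range of signal. EREG ran most like PEG10 and ANTXR2 (r = 0.994 for each) and NDEL1 (r = 0.992), while its median correlation with all genes was −0.09. HBEGF ran most like GMCL1, APP and MTDH (r = 0.993 to 0.994), and NRG1 like NFAT5, RBM25 and RAPGEF2 (r = 0.992 to 0.993). TGFA ran most like ATP8A1 (r = 0.988), SLC19A2 and HERC3, and all of these genes had negative differences with astrocytes. BTC ran most like L3MBTL4 (r = 0.987), CYP27B1 and ADGRA2. EGF ran most like LACRT, ETNPPL and FAM47E (r = 0.909 for each), and EPGN like FAM86B2-DT (r = 0.904), CHP1P2 and NYNRIN. These genes had positive differences. Between ligand genes the closest pair was EREG and HBEGF (r = 0.984), followed by NRG1 with EREG and HBEGF.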

How the data were processed

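RNA of sorted EGFP-positive 231BR cells was measured on 12 single-colour Affymetrix arrays in 4 groups of 3. The deposited values are log2 signals per probe set, and per the submitters' processing notes the authors used RMA and Partek, with no version, role or order given. The build is not given in the sources used here. Array medians were 4.35 to 4.77. Of 33297 probe sets, 19181 carried 1 symbol in the platform's probe table, 2055 several, and 12061 were not in it. For 895 genes with several probe sets the one with the highest mean was kept, leaving 17958 genes with no filter on low values, so all 7 ligand genes were tested. Probe sets differ in binding, so genes are called dim or bright by their signal on the array only, and this does not rank their amounts of RNA.

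A limma 3.58.1 model (R 4.3.3, lmFit and eBayes) of the 4 group means over all 12 arrays gave two-sided p-values. They were adjusted across the 17958 genes by Benjamini-Hochberg, with a threshold of 0.05. This was tested on simulated data. Precision is limited by the number of arrays. The members, lists, named genes, tests and alternatives were chosen with earlier results of these data known. All ligand genes are named, with pathway genes that passed or had the smallest p, examples only where many passed, and the 3 genes most alike each ligand gene, leaving out microRNA, small RNA and open reading frame names. The alternatives were quantile normalization, centring, the array SD as a covariate, a block for the replicate number, averaged probe sets, genes above the median level, eBayes with trend and robust options, the compared groups only, and arrays left out. Added after seeing the data were the second NRG1 probe set, a block within the astrocyte groups, and alternatives for the lists and the exact test. Same-number arrays of the 2 astrocyte groups deviated together for replicates 1 and 2 (r = 0.789 and 0.756). This pairing was taken from the values, since no label says what a number marks. For replicate 3 r was 0.214, and replicate 3 of estradiol with astrocytes ran closer to replicate 1 of vehicle with astrocytes (r = 0.396). Arrays of unlike number also ran together elsewhere, such as replicate 2 of estradiol alone and replicate 3 of vehicle alone (r = 0.760). In the other pairs of groups at least 1 same-number correlation was under 0.1. Comparisons that share arrays are not independent. A planned adjustment of the exact p-values over the 7 genes was left out.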

Additional observations from a re-analysis of the deposited data

How the results depend on the processing

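With the replicate number as a block, 1 ligand gene passed for astrocytes against none under vehicle, against 0 without it, and 2 other ERBB ligand genes passed in the mean of both treatments against 1. Under estradiol HBEGF joined EREG and NRG1, and in the mean BTC joined the 4. With the block 14.4% of all genes passed under vehicle, 37.3% under estradiol and 57.2% in the mean. Without it the shares were 0.0557%, 13.2% and 47.5%. The block changed no other call of a ligand gene, and within the 2 astrocyte groups alone it called 0. Fitting only the compared groups gave 1 ligand gene under vehicle and 0 under estradiol, beside 8.88% and 0% of all genes. Quantile normalization gave 0 under estradiol, beside 3.02% of all genes. It gave 3 of 7 in the exact test against 5, beside 54.5% of all genes against 62.6%. The array SD as a covariate gave 0 ligand genes under estradiol and in the mean, and in the lists 0 for shedding, 0 for receptors, 2 for adaptors, 4 for endocytosis and feedback, 0 for other ligands and 0 for HBEGF partners, against 3, 2, 8, 10, 1 and 4. The share of all genes in that fit was 2.61% under estradiol and 14.4% in the mean, against 13.2% and 47.5%. Centring arrays on the median moved the median of all genes in the mean comparison to −0.10, against 0.07. It gave 5 shedding genes and 0 other ligands, beside 42.5% of all genes. Genes above the median level, which leaves out EGF, BTC and EPGN, gave 1 receptor and 0 other ligands, and put TGFA at an adjusted p of 0.0544 in the mean and HBEGF at 0.0487 under estradiol. Of those genes 45.9% passed in the mean and 18.3% under estradiol. Trend and robust options gave 2 other ligands, beside 48.4% of all genes.

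Without single arrays the ligand genes called ranged from 0 to 4 under vehicle, 0 to 3 under estradiol and 3 to 6 in the mean. Over all genes the shares ranged from 0.0111% to 34.0%, 0.0167% to 51.4% and 26.6% to 63.1%. The lists ranged from 2 to 6 for shedding, 2 to 5 for HBEGF partners and 0 to 2 for other ligands.

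Differences that changed sign had all missed the threshold. For estradiol against vehicle alone, EGF was at 0.025 with quantile normalization, 0.019 with centring and 0.0039 with the array SD. There NRG1 was at −0.029 with quantile normalization and −0.026 with the array SD, EREG at −0.056 and HBEGF at −0.026 with the array SD. With astrocytes NRG1 was at 0.017, and its interaction at 0.043, both with the array SD. For astrocytes against none, EGF under vehicle was at −0.028 with quantile normalization, BTC under estradiol at −0.16 and in the mean at −0.060 with the array SD, and EPGN in the mean at −0.13 with quantile normalization, −0.051 with centring and −0.037 with the array SD. Without single arrays, estradiol against vehicle alone ranged from −0.040 to 0.026 for EGF, −0.12 to 0.13 for EREG, −0.029 to 0.056 for HBEGF, −0.036 to 0.058 for BTC and −0.079 to 0.069 for NRG1. With astrocytes it ranged from −0.083 to 0.36 for EGF, −0.073 to 0.23 for TGFA, −0.42 to 0.19 for BTC and −0.35 to 0.24 for NRG1, and without replicate 2 of both groups HBEGF was at 0.011 and NRG1 at 0.14. The interaction ranged from −0.076 to 0.37 for EGF, −0.21 to 0.10 for TGFA, −0.43 to 0.17 for BTC and −0.35 to 0.23 for NRG1, which was at 0.14 without both replicates 2.

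Over all genes, 8528 passed in the mean comparison, of which 51.5% were higher, against 39.0% with centring; 2584 passed with the array SD, 4118 among genes above the median level and from 4770 to 11339 without single arrays. Under estradiol 2366 passed, 38.2% of them higher, against 61.0% with the array SD. The count was 6691 with the block, 542 with quantile normalization, 469 with the array SD, 0 in the compared groups only, and it was from 3 to 9222 without single arrays. Under vehicle 10 passed, against 2583, 1166 and 1594 with the block, the array SD and the compared groups only, 4 with centring, 5 among genes above the median level and from 2 to 6107 without single arrays. For estradiol against vehicle with astrocytes 1 gene passed with the array SD, against 0. The cause of these shifts was not tested. How far a narrow range of signal on an array limits what can be seen in dim genes such as EGF, BTC and EPGN was not tested.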
